A study of Mus musculus with 2 samples.

Results

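The genes described here are the chemokines and their receptors. They were taken as every feature whose symbol begins with Ccl, Cxcl, Cx3cl, Xcl, Ccr, Cxcr, Cx3cr, Xcr or Ackr followed by a digit. The rule took 67 of the 32589 features in the counts: 44 ligands, 19 receptors and 4 atypical receptors. The counts are unique molecular identifiers (UMIs), each standing for 1 captured RNA molecule, from single cells of the pressure-loaded left ventricle of mice. Pressure load came from transverse aortic constriction (TAC), a surgical narrowing of the aorta, and tissue was taken 6 weeks later. There were 2 groups of 1 library each, wild-type mice and p53 knockout mice, both after TAC, and each library held tissue of 3 hearts mixed together. Neither a group without surgery nor the age, the strain or the knockout allele is given in the sources used here.

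With 1 library per group there was no test across samples, and no p-value is given. All intervals are exact 95% intervals and cover counting error only. They treat UMIs as independent, although a cell can hold several UMIs of 1 gene. The library labelled wild-type had 18897913 UMIs in 16060 barcodes and the library labelled p53 knockout had 20918824 in 10118, and 105 barcodes occurred in both. The filters kept 14764 and 9298 cells, whose median depth was 937 and 1568 UMIs. Trp53, the gene that encodes p53, stood at 39.0 and 55.1 counts per 1000000 nuclear-encoded UMIs (CPM), so the counts did not show the loss that the label names, and the position of its tags relative to the deleted part is not known. Xist stood at 2.37 and 931 CPM and the Y-linked genes summed to 539 and 7.29 CPM, so RNA of both sex chromosomes differed too. Genotype, sex and library preparation cannot be told apart in any comparison below. The labels name cardiomyocytes, whereas cardiomyocyte-like cells made up 33% and 9.24% of the kept cells. RNA of cardiomyocytes also lay in the other classes: 10 cardiomyocyte markers summed to 8227 and 1783 CPM in fibroblast-like, 8354 and 1858 CPM in endocardial-like and 9244 and 2259 CPM in macrophage-like cells, with all 10 detected in each. The part of such free RNA in the results below was not tested.

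Chemokines are small secreted proteins that attract leukocytes. They bind to sugar chains on cell surfaces and in the matrix and signal through G protein-coupled receptors on the cells they attract. Atypical receptors bind chemokines without that signal and take them up, which shapes the gradients. In the pressure-loaded heart the family is best known for the entry of monocytes through Ccr2 and of neutrophils through Cxcr2, and for the hold that Cxcl12 has on Cxcr4-bearing cells.

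NF-kB is a transcription factor family that induces many inflammatory chemokine genes. The promoters of Cxcl1, Cxcl2, Cxcl3 and Cxcl10 are shown because these ligand genes share a run of chromosome 5 and hold an NF-kB motif, GGGA and TTCC with any 2 bases between them. Each line gives the 250 bases before the RefSeq start on GRCm38.p6, with the motif in capitals. In Cxcl10 capitals also mark an interferon response motif on the opposite strand, a pair of TTTC with any 2 bases between. The windows are chr5:90890995-90891244 on the plus strand for Cxcl1, chr5:90903649-90903898 on the plus strand for Cxcl2, chr5:90785851-90786100 on the plus strand for Cxcl3 and chr5:92348890-92349139 on the minus strand for Cxcl10.
Cxcl1: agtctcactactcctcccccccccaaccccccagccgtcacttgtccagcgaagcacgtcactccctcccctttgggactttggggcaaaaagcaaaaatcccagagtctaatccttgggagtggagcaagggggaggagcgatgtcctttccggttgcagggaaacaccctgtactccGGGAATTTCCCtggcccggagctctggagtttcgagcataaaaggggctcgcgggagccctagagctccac
Cxcl2: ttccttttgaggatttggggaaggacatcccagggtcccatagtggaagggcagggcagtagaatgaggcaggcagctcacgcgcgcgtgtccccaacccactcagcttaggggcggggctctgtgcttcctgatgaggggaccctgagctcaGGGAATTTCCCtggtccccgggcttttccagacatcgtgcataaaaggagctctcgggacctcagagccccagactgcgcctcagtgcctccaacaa
Cxcl3: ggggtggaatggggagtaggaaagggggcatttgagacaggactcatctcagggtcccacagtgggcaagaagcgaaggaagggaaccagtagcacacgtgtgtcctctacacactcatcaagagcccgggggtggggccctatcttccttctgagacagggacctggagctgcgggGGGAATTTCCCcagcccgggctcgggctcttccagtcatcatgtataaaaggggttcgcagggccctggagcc
Cxcl10: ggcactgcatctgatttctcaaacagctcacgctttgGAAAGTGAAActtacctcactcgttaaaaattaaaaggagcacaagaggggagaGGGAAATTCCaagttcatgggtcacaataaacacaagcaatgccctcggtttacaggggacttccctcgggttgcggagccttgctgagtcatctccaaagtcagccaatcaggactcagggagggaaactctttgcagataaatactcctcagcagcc
The motif began at position -71 from the start in Cxcl1, -97 in Cxcl2, -73 in Cxcl3 and -159 in Cxcl10. In Cxcl1, Cxcl2 and Cxcl3 the matches on both strands overlapped by all but 1 base at each end. Of the 62 distinct member symbols, 46 were in the promoter table, with 54 promoters of 300 bases reaching 50 bases past the start. The NF-kB motif was found in 6 of these 54 (11.1%) and in 1.47% of all 32851 promoters of that length, with both strands searched. The other carriers were Ccl1 and Ccr3. The interferon response motif was found in 3 of 54 (5.56%), those of Ccl19, Cxcl10 and Cxcl14, and in 3.44% of all promoters. A match describes letters and does not show binding.

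Of the 67 features, 55 had at least 1 UMI. A further 12 had none, among them Cxcr1, Cxcl15, Ccr1l1 and the near-identical copies of Ccl19, Ccl21, Ccl27 and Ccl27b. How reads shared by such copies were assigned was not examined. The 55 comprised 8 with 1 to 19 UMIs, 15 with 20 to 99 and 32 with at least 100. The members summed to 13379 UMIs under the wild-type label and 21703 under the p53 knockout label, 0.0814% and 0.117% of nuclear-encoded UMIs.

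A member was called measured with at least 20 UMIs over both libraries, and a difference was counted from 2-fold. Over all kept cells 47 members were measured. Of these, 24 were at least 2-fold higher in the library labelled p53 knockout, where 11.9% of all measured genes were, and 4 were at least 2-fold lower, where 10.9% of all genes were. The median log2 ratio was 1.18 over the members and 0.04 over all genes. By role, the higher side held 14 of 29 measured ligands, 8 of 14 receptors and 2 of 4 atypical receptors, and the 4 lower members were the ligands Ccl11, Ccl24, Ccl27a and Cxcl9.

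The libraries also held the classes in different shares. When class levels were weighted by the same class shares in both libraries, 18 members were higher (background 5.95%) and 5 were lower (12.3%). Within the class that held more of a member's UMIs over both libraries than any other, its main source class (taken among classes of at least 50 cells in each library), 33 members were measured, 14 were higher (7.24% of all genes) and 6 were lower (12.3%). The median there was 0.12 over the members and -0.11 over all genes. A class in which a member was high in 1 library is more readily its main source class, so these 14 and 6 are a description. Of the receptors, 8 were higher over all cells, and 2 of the 6 measured in their main source class were higher there.

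**Figure D1:**
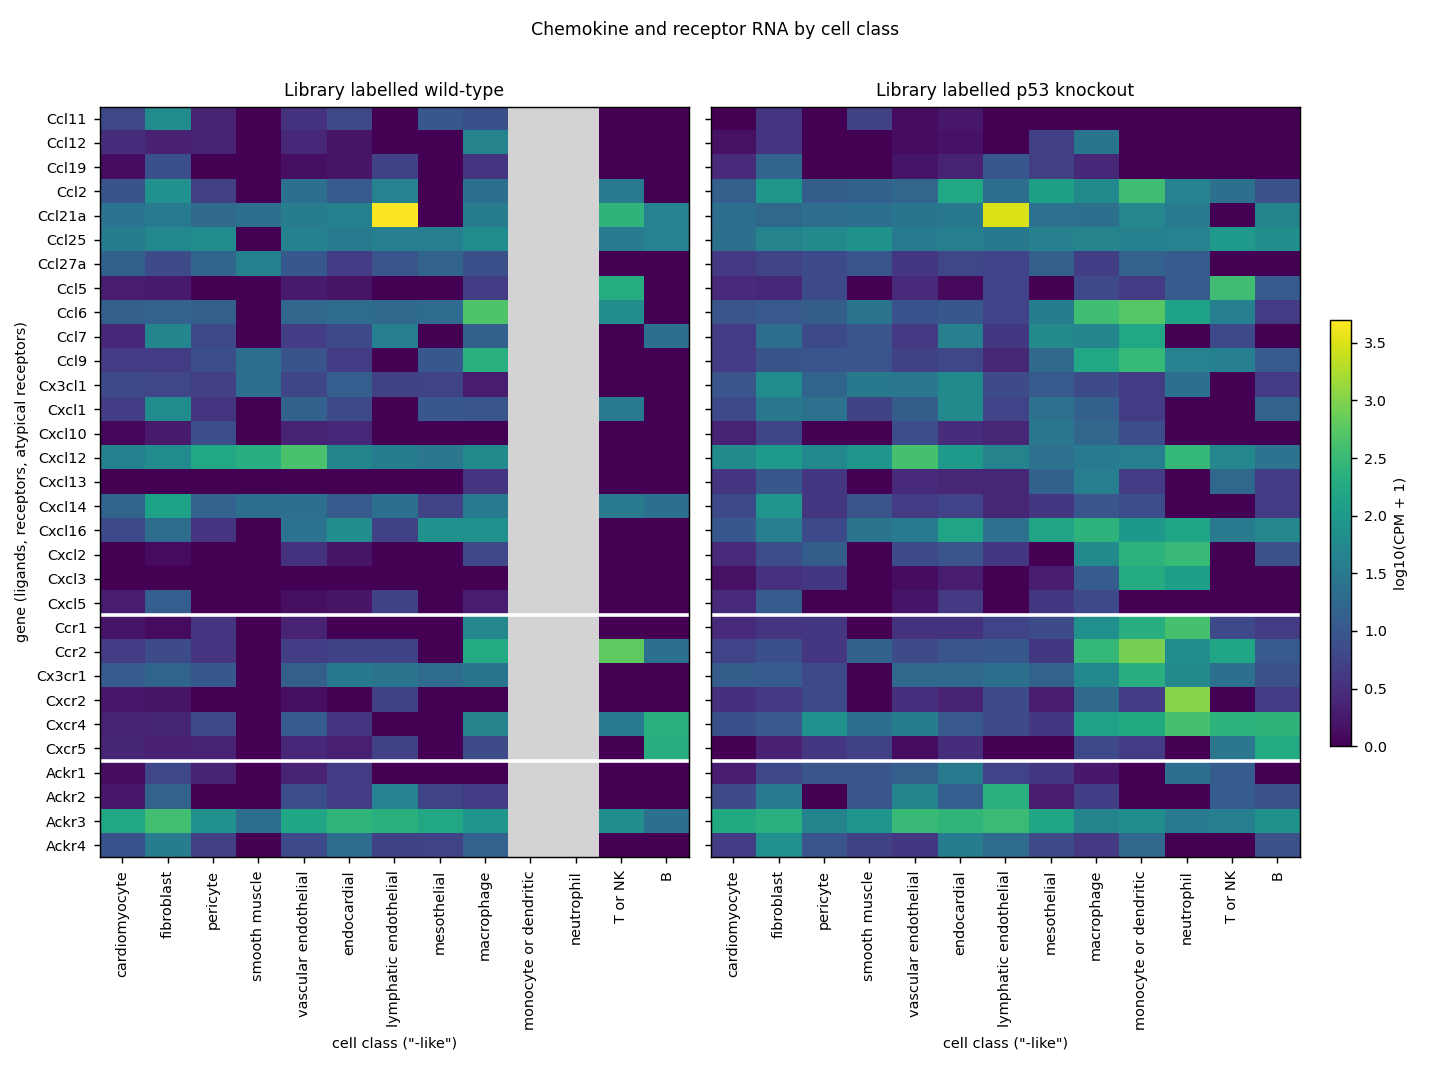
Level of 31 members with at least 100 UMIs in each cell class, as log10(CPM + 1), in the library labelled wild-type (left) and the library labelled p53 knockout (right); white lines divide ligands, receptors and atypical receptors, and grey marks classes with fewer than 20 cells. Ccl21a is brightest in lymphatic endothelial-like cells in both panels, and Cxcr2 is bright in neutrophil-like cells on the right.

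**Figure D2:**
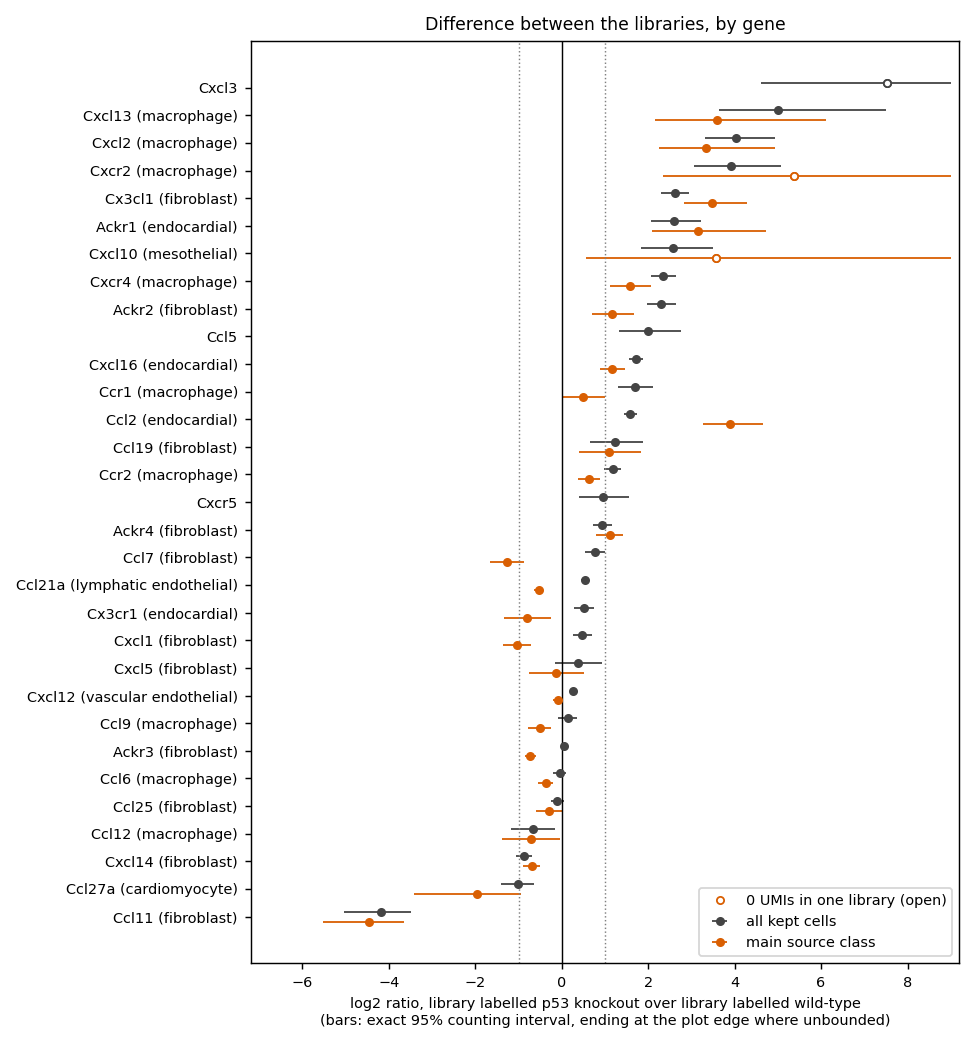
Log2 ratio (p53 knockout label over wild-type label) for the same 31 members, over all kept cells (grey) and in the main source class named in brackets (orange), with exact 95% counting intervals; dotted lines mark 2-fold, and open points have 0 UMIs in the library labelled wild-type, so they are no bounds. Cxcl3 lies at the top and Ccl11 at the bottom, and for Ccl7 and Cxcl1 the 2 points lie on opposite sides of 0.

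Cell classes were named from marker genes, with the chemokine and receptor genes left out of clustering and naming. The same class was often held by different clusters in the 2 libraries. Fibroblast-like cells were mainly cluster 0 in the library labelled wild-type (3022 and 167 cells), led by Abca6, Clec3b and Scara5, and cluster 3 in the other (141 and 1891 cells), led by Cilp, Postn and Col1a1. Endocardial-like cells were cluster 4 (1617 and 398 cells; Cytl1, Npr3) and cluster 8 (15 and 1258 cells; Nrg1, Selp, Smoc1). Macrophage-like cells were clusters 22 (428 and 79) and 23 (441 and 37), led by F13a1, Mrc1 and Cd163, cluster 25 (166 and 114), led by class II genes, and clusters 24 (30 and 317), 29 (2 and 152; Gpnmb, Mmp12) and 30 (8 and 141; Cd163). Values within clusters are therefore given beside many of the class-wide values. The highest class level of a gene is given over classes of at least 50 cells in that library.

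By class, 9 of 26 members measured in fibroblast-like cells were at least 2-fold higher (6.88% of all genes) and 4 lower (11.2%). Endocardial-like cells had 9 of 21 higher (6.38%) and 2 lower (11.2%), and macrophage-like cells 10 of 24 higher (8.21%) and 2 lower (11.8%). Mesothelial-like cells had 5 of 11 higher (12.4%) and 0 lower (13.3%). Vascular endothelial-like cells had 6 of 22 higher (6.27%) and 5 lower (12.0%), so the members there were on both sides. Cardiomyocyte-like cells had 1 of 19 higher (4.23%) and 4 lower (16.2%). With few members measured, lymphatic endothelial-like cells had 1 of 7 higher (8.73%) and 1 lower (9.29%), pericyte-like cells 1 of 5 higher (5.43%) and 1 lower (11.5%), and smooth muscle-like cells 1 of 2 higher (18.6%) and 1 lower (14.1%).

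The ligands of Ccr2 are Ccl2, Ccl7 and Ccl12, which draw monocytes. Ccl2 (ENSMUSG00000035385; chromosome 11, 82035571 to 82037453, mm10) stood at 25.8 CPM (23.4 to 28.4) over all cells under the wild-type label and 77.7 CPM (73.7 to 81.8) under the p53 knockout label, giving a log2 ratio of 1.59 (1.43 to 1.75). Its main holder differed: fibroblast-like cells had 60.6% of its UMIs in the first and 26.1% in the second, and endocardial-like cells 4.48% and 44.3%. In endocardial-like cells it had 19 UMIs and 637, or 10.6 CPM (6.37 to 16.5) and 160 CPM (148 to 173), giving a log2 ratio of 3.89 (3.27 to 4.67). The latter level was above the 88.7 CPM that fibroblast-like cells of the same library had. Within cluster 4 the level was 10.7 and 80.2 CPM, giving a log2 ratio of 2.88 (2.13 to 3.74), and cluster 8 had 177 CPM in the library labelled p53 knockout. Endocardial-like cells were thus higher in the library labelled p53 knockout within the cluster that both libraries shared as well as across the class.

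Fibroblast-like cells went the other way once clusters were held apart. Across the class Ccl2 was 74.3 and 88.7 CPM, giving a log2 ratio of 0.25 (0.02 to 0.49). Within cluster 0 it was 58.7 and 18.1 CPM from 192 and 4 UMIs, giving a log2 ratio of -1.54 (-3.59 to -0.32), and within cluster 3 it was 344 and 92.6 CPM, giving a log2 ratio of -1.90 (-2.28 to -1.49). The 65 UMIs of cluster 3 in the library labelled wild-type came from 12 of 141 cells. Ccl2 RNA was uneven among cells in both libraries: 8.74% of cluster 8 cells in the library labelled p53 knockout held its 582 UMIs there.

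Mesothelial-like and macrophage-like cells added to the Ccl2 of the library labelled p53 knockout. In mesothelial-like cells, the lining of the heart's surface, it had 0 UMIs (an interval up to 17.2 CPM) and 122 UMIs, 123 CPM (102 to 147). Macrophage-like cells had 21.4 and 58.1 CPM, giving a log2 ratio of 1.42 (0.76 to 2.17), and monocyte or dendritic-like cells of the library labelled p53 knockout had 370 CPM (304 to 447), its highest level among the classes there. After thinning every cell to 500 UMIs, 0.441% and 3.59% of endocardial-like cells held a Ccl2 UMI, against 0.314% and 0.708% of cardiomyocyte-like cells. Unthinned the endocardial-like shares were 0.797% and 7.55%, at median depths of 1015 and 1982 UMIs, and those of cardiomyocyte-like cells were 0.657% and 2.10%, at 982.5 and 1760 UMIs. At equal depth the difference between the libraries was thus larger in endocardial-like cells than in cardiomyocyte-like cells.

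Ccl7 (ENSMUSG00000035373; chromosome 11, 82045712 to 82047525), the neighbour of Ccl2, had the same change of holder. Over all cells it stood at 14.0 CPM (12.2 to 15.9) and 23.7 CPM (21.5 to 26), giving a log2 ratio of 0.76 (0.53 to 1). Fibroblast-like cells had 171 and 87 UMIs, 49.5 and 20.6 CPM, giving a log2 ratio of -1.26 (-1.66 to -0.88). Endocardial-like cells had 10 and 160 UMIs, 5.57 and 40.3 CPM, giving a log2 ratio of 2.79 (1.94 to 3.94). The 2 classes therefore differed in opposite directions. Within clusters the signs were the same: -1.64 in cluster 0 and -1.53 in cluster 3 of the fibroblast-like cells, and 2.02 (0.82 to 3.35) in cluster 4. Macrophage-like cells had 12.5 and 47.9 CPM, and monocyte or dendritic-like cells of the library labelled p53 knockout had 164 CPM (121 to 218), its highest class level.

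Ccl12 (ENSMUSG00000035352; chromosome 11, 82101845 to 82103400) stood at 4.87 CPM (3.86 to 6.05) and 3.08 CPM (2.33 to 3.99) over all cells, giving a log2 ratio of -0.66 (-1.18 to -0.15). It was macrophage-held in both libraries, with 61.2% and 59.6% of its UMIs there, at 43.6 and 26.7 CPM, giving a log2 ratio of -0.70 (-1.38 to -0.05). Within cluster 23 it was -0.64 (-6.56 to 1.39), from 28 and 1 UMIs, and within cluster 22, from 12 and 6 UMIs and so under the minimum of 20, it was 0.96 (-0.80 to 2.43). Of the Ccr2 ligands, Ccl12 alone was lower under the p53 knockout label when all cells were summed.

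**Figure D3:**
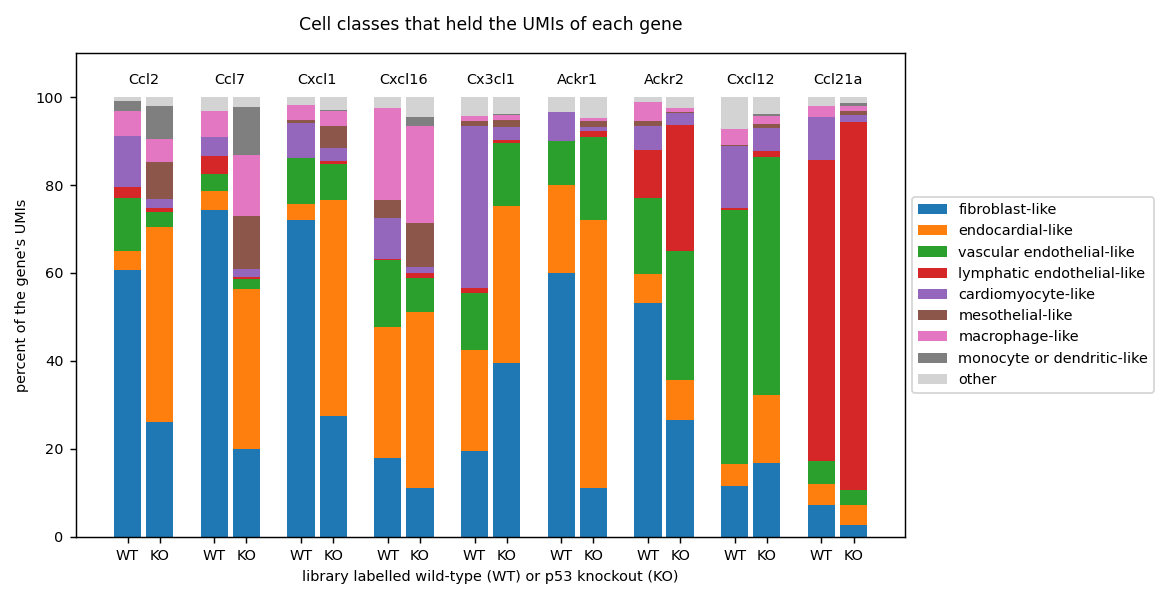
Percent of each gene's UMIs held by each cell class in the library labelled wild-type (WT) and the library labelled p53 knockout (KO), for 9 members; classes are coloured as in the key and all other cells are light grey. The fibroblast-like part of Ccl2, Ccl7 and Cxcl1 is larger in WT and the endocardial-like part is larger in KO, whereas Cxcl12 and Ccl21a have the same largest class in both.

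The ligands of Cxcr2, which draw neutrophils, are Cxcl1, Cxcl2, Cxcl3 and Cxcl5. Cxcl1 (ENSMUSG00000029380; chromosome 5, 90891241 to 90893115) stood at 17.7 CPM (15.7 to 19.9) and 24.6 CPM (22.4 to 26.9) over all cells, giving a log2 ratio of 0.47 (0.26 to 0.69). In fibroblast-like cells it was 60.7 CPM (52.8 to 69.5) and 29.6 CPM (24.6 to 35.2), giving a log2 ratio of -1.04 (-1.37 to -0.71), and in endocardial-like cells 5.57 CPM (2.67 to 10.2) and 56.4 CPM (49.3 to 64.3), giving a log2 ratio of 3.27 (2.44 to 4.42). As with Ccl7, the 2 classes differed in opposite directions. Within the shared clusters neither difference stood beyond counting error: the log2 ratio was -0.39 (-1.54 to 0.45) in cluster 0, -0.46 (-1.46 to 0.98) in cluster 3 and -0.55 (-4.05 to 1.48) in cluster 4. The value of cluster 4 came from 9 and 2 UMIs, under the minimum of 20. Cluster 8 held 222 of the 224 endocardial-like UMIs of the library labelled p53 knockout.

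Cxcl2 (ENSMUSG00000058427; chromosome 5, 90903871 to 90905938) had 15 and 284 UMIs over all cells, 0.912 CPM (0.51 to 1.5) and 15.3 CPM (13.6 to 17.2), giving a log2 ratio of 4.03 (3.33 to 4.93). In macrophage-like cells, its main source class, it had 6 and 74 UMIs, 5.34 and 58.1 CPM, giving a log2 ratio of 3.34 (2.25 to 4.93). The Gpnmb and Mmp12 cluster 29 held 47 of the 74, in 6 cells, and 2 of its cells came from the library labelled wild-type. Levels in the library labelled p53 knockout were highest in neutrophil-like cells, at 324 CPM (219 to 463), and in monocyte or dendritic-like cells, at 247 CPM (193 to 311).

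Cxcl3 (ENSMUSG00000029379; chromosome 5, 90786103 to 90789600) had no UMI under the wild-type label and 104 UMIs under the other, 5.62 CPM (4.59 to 6.80). That is 30.8-fold above a floor of 3 counts in the library labelled wild-type. Monocyte or dendritic-like cells held 51.9% of it, at 185 CPM (139 to 242). They numbered 158 in the library labelled p53 knockout and 5 in the other, so its level per cell in that class could not be compared. In macrophage-like cells there were 0 and 14 UMIs. Cxcl5 (ENSMUSG00000029371; chromosome 5, 90759360 to 90761624) was the steady member of this group, with 3.10 CPM (2.31 to 4.08) and 4.05 CPM (3.19 to 5.08) over all cells. It was fibroblast-held in both libraries, at 11.9 and 10.9 CPM there, giving a log2 ratio of -0.13 (-0.76 to 0.52). Its 41 UMIs in cluster 0 were all of the library labelled wild-type and its 46 in cluster 3 all of the other.

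The ligands of Cxcr3 follow interferon. Cxcl10 (ENSMUSG00000034855; chromosome 5, 92346638 to 92348889) had 15 and 104 UMIs, 0.912 CPM (0.51 to 1.5) and 5.62 CPM (4.59 to 6.80), giving a log2 ratio of 2.58 (1.83 to 3.51). Its UMIs in the library labelled p53 knockout were spread over mesothelial-like cells (27), fibroblast-like cells (21), vascular endothelial-like cells (21) and macrophage-like cells (20). In mesothelial-like cells, its main source class, it had 0 and 27 UMIs, 27.3 CPM (18 to 39.7) in the second, 1.95-fold above a floor of 3 counts. Cxcl9, with fewer UMIs, went the other way, at 54 and 24 UMIs. In vascular endothelial-like cells, which held most of it, it stood at 12.1 and 4.96 CPM, giving a log2 ratio of -1.27 (-2.27 to -0.36). Cxcl11 has no row in the counts and was not analysed here.

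Eosinophils are drawn by the eotaxins Ccl11 and Ccl24 through Ccr3. Ccl11 (ENSMUSG00000020676; chromosome 11, 82057823 to 82062955) had 265 and 16 UMIs, 16.1 CPM (14.2 to 18.2) and 0.864 CPM (0.494 to 1.40), giving a log2 ratio of -4.18 (-5.05 to -3.50). Fibroblast-like cells held 77.4% and 68.8% of it, and there it was 59.3 CPM (51.5 to 68.0) and 2.60 CPM (1.30 to 4.65), giving a log2 ratio of -4.45 (-5.54 to -3.64). It was lower within cluster 0, at -1.93 (-4.44 to -0.58) from 196 and 3 UMIs. Cluster 3 had 9 and 8 UMIs, under the minimum of 20, and a ratio of -4.57 (-6.15 to -3.03). Among the 31 members described, this is the lowest ratio over all cells. Ccl24 had 66 and 15 UMIs; macrophage-like cells had 31.2 and 4.71 CPM, giving a log2 ratio of -2.63 (-4.27 to -1.46), and cluster 23 held 28 of the 35 UMIs in the library labelled wild-type. Within cluster 23 it was 58.2 and 50.6 CPM, from 28 and 2 UMIs, giving a log2 ratio of 0.09 (-3.32 to 1.78). Ccr3 itself had 6 UMIs in each library.

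**Figure D4:**
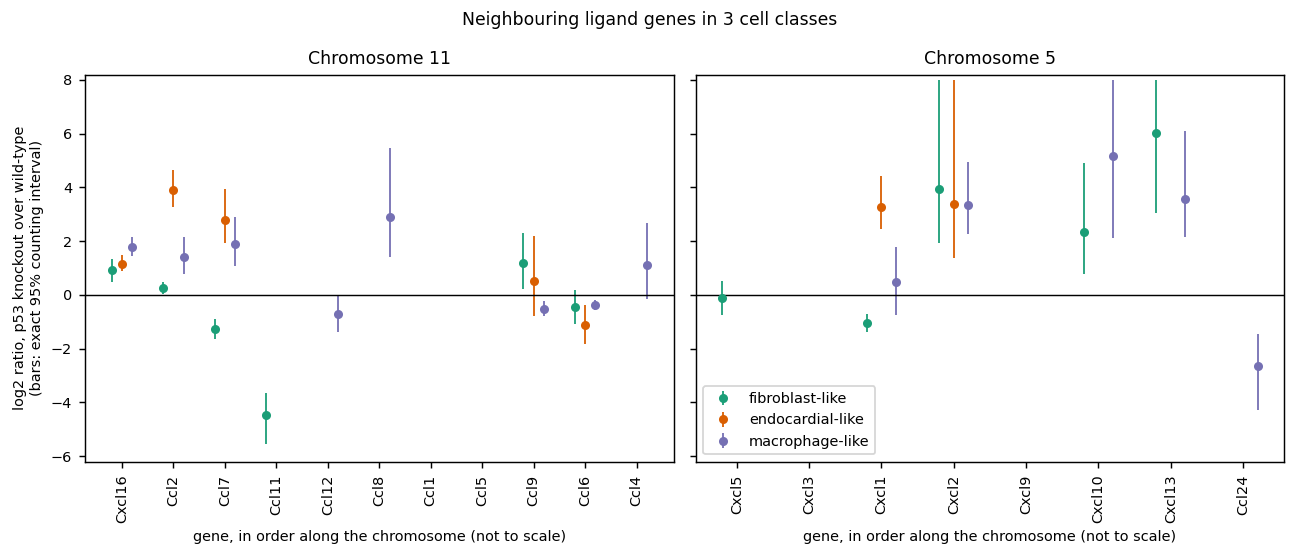
Log2 ratio (p53 knockout label over wild-type label) for ligand genes in their order along chromosome 11 (left) and chromosome 5 (right), in fibroblast-like (green), endocardial-like (orange) and macrophage-like (purple) cells, with exact 95% counting intervals; a gene without a point had fewer than 20 UMIs in that class, and Cxcl10 in macrophage-like cells and Cxcl13 in fibroblast-like cells had 0 UMIs in the library labelled wild-type. Across the fibroblast-like class neighbouring genes differ in sign, with Ccl7 at -1.26 and Ccl11 at -4.45 beside Ccl2 at 0.25. Within its clusters, which are not plotted, they share a sign. Ccl2, Ccl7 and Ccl11 were at -1.54, -1.64 and -1.93 in cluster 0. In cluster 3 they were at -1.90, -1.53 and -4.57, the last from fewer than 20 UMIs.

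Ccl6 and Ccl9, mouse ligands of Ccr1, were macrophage-held. Ccl6 (ENSMUSG00000018927; chromosome 11, 83587882 to 83593087) stood at 47.0 CPM (43.8 to 50.4) and 45.4 CPM (42.4 to 48.5) over all cells, giving a log2 ratio of -0.05 (-0.19 to 0.09). In macrophage-like cells it was 482 CPM (442 to 524) and 372 CPM (339 to 406), giving a log2 ratio of -0.38 (-0.56 to -0.19), and monocyte or dendritic-like cells of the library labelled p53 knockout had 528 CPM (448 to 618). Of the macrophage-like clusters, cluster 22 had 310 and 529 CPM, giving a log2 ratio of 0.78 (0.29 to 1.23). Cluster 23 had 693 and 581 CPM, giving -0.22 (-0.93 to 0.36), and cluster 25 had 333 and 367 CPM, giving 0.14 (-0.35 to 0.64). The intervals of clusters 23 and 25 hold 0, so opposite directions among these clusters were not shown beyond counting error. Ccl9 (ENSMUSG00000019122; chromosome 11, 83572919 to 83578636) stood at 20.1 CPM (18 to 22.4) and 22 CPM (19.9 to 24.3) over all cells, and at 225 and 158 CPM in macrophage-like cells, giving a log2 ratio of -0.51 (-0.79 to -0.24). Its highest class level was 298 CPM (239 to 368), in monocyte or dendritic-like cells of the library labelled p53 knockout. Within clusters 22 and 23 the ratio was -0.09 and -0.10, with intervals that hold 0.

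Ccl5 (ENSMUSG00000035042; chromosome 11, 83525778 to 83530518), a product of T and NK cells, had 22 and 100 UMIs, 1.34 CPM (0.838 to 2.02) and 5.4 CPM (4.39 to 6.57), giving a log2 ratio of 1.99 (1.34 to 2.75). In T or NK-like cells, of which there were 30 and 131, it was 193 CPM (70.8 to 420) and 362 CPM (279 to 461), giving a log2 ratio of 0.80 (-0.29 to 2.40). The interval within the class holds 0, whereas that over all cells does not. Its largest class with at least 50 cells in each library, macrophage-like cells, held 4 and 7 UMIs.

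Cxcl16 and Cx3cl1 are made as membrane-bound ligands. Cxcl16 (ENSMUSG00000018920; chromosome 11, 70453983 to 70459984), which binds Cxcr6 on T cells and is also a scavenger receptor, stood at 23.2 CPM (20.9 to 25.6) and 76.5 CPM (72.6 to 80.6), giving a log2 ratio of 1.72 (1.56 to 1.89). Endocardial-like cells, its main source class, had 63.4 CPM (52.3 to 76.2) and 143 CPM (131 to 155), giving a log2 ratio of 1.17 (0.88 to 1.47). Within cluster 4 it was 64.2 and 77.2 CPM, giving a log2 ratio of 0.27 (-0.23 to 0.75), and cluster 8 stood at 157 CPM in the library labelled p53 knockout. Macrophage-like cells had 71.2 CPM (56.5 to 88.7) and 247 CPM (220 to 275), giving a log2 ratio of 1.78 (1.43 to 2.16). There too clusters divided: cluster 25 had 182 and 172 CPM, giving a log2 ratio of -0.08 (-0.79 to 0.63), and cluster 22 had 58.6 and 72.9 CPM, giving 0.37 (-1.05 to 1.52). Cluster 24 had 74.9 and 461 CPM from 2 and 157 UMIs, giving a log2 ratio of 2.31 (0.75 to 5.68), and cluster 23 had 35.4 and 126 CPM from 17 and 5 UMIs, giving 1.93 (0.04 to 3.34). Mesothelial-like cells of the library labelled wild-type had 74.4 CPM (42.5 to 121), its highest class level in that library.

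Cx3cl1 (ENSMUSG00000031778; chromosome 8, 94772009 to 94782427), the ligand of Cx3cr1, had 92 and 636 UMIs, 5.59 CPM (4.51 to 6.86) and 34.4 CPM (31.7 to 37.1), giving a log2 ratio of 2.61 (2.30 to 2.95). In fibroblast-like cells it had 18 and 252 UMIs, 5.21 CPM (3.08 to 8.23) and 59.6 CPM (52.5 to 67.4), giving a log2 ratio of 3.48 (2.83 to 4.29). Most of its UMIs lay in clusters that the libraries hardly shared: fibroblast-like cluster 3 had 1 and 248 UMIs, giving a log2 ratio of 2.96 (1.06 to 8.86), and endocardial-like cluster 8 held 214 of the 227 endocardial-like UMIs. In cluster 4, shared by both libraries, the level was 11.8 and 19 CPM, giving a log2 ratio of 0.70 (-0.44 to 1.75). Vascular endothelial-like cells had 5.02 and 28.2 CPM, giving a log2 ratio of 2.44 (1.62 to 3.50). In the library labelled wild-type the largest part of Cx3cl1 lay in cardiomyocyte-like cells (37.0%), at 5.46 CPM, near its level over all cells.

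The homeostatic ligands, made without inflammation, include Cxcl12, Ccl21a and Ccl19. Cxcl12 (ENSMUSG00000061353; chromosome 6, 117168535 to 117181367), the ligand of Cxcr4 and Ackr3, stood at 110 CPM (105 to 115) and 133 CPM (128 to 138), giving a log2 ratio of 0.27 (0.18 to 0.36). Vascular endothelial-like cells held 57.8% and 54.3% of it, at 438 CPM (412 to 465) and 414 CPM (392 to 437), giving a log2 ratio of -0.08 (-0.20 to 0.04). Its level was highest in cluster 7, led by Btnl9, Sema3g and Sox17, at 625 CPM (557 to 700) and 638 CPM (598 to 679), and it was 421 and 509 CPM in cluster 2 and 286 and 166 CPM in cluster 10. After thinning, 16.3% and 16.1% of vascular endothelial-like cells held a Cxcl12 UMI, against 0 of 46 and 0.901% of B-like cells (23% and 28.7% against 0 of 48 and 2.67% unthinned, at median depths of 814 and 1424 UMIs in the first class and 984.5 and 1139 in the second). Cluster 10 was an exception to this evenness, with a log2 ratio of -0.79 (-1.11 to -0.46). Outside the vascular endothelial-like class, pericyte-like cells had 161 and 51.6 CPM, giving a log2 ratio of -1.61 (-2.45 to -0.92). Smooth muscle-like cells, with 10 and 20 UMIs, had -1.30 (-2.43 to -0.01).

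Ccl21a (ENSMUSG00000094686) (chromosome 4, 42772860 to 42773993), which guides Ccr7-bearing cells into lymph vessels, stood at 97 CPM (92.3 to 102) and 140 CPM (135 to 146) over all cells, giving a log2 ratio of 0.53 (0.44 to 0.63). Lymphatic endothelial-like cells held 68.6% and 83.7% of it and had 4705 and 3248 CPM, giving a log2 ratio of -0.53 (-0.64 to -0.43). The sign over all cells was therefore the reverse of that within the class, whose cells made up 1.38% and 3.45% of the libraries. The remaining classes of at least 50 cells per library had 0 to 40.6 CPM. Ccl19 (ENSMUSG00000071005) (chromosome 4, 42754525 to 42756577), the other Ccr7 ligand, had 32 and 86 UMIs, 1.95 CPM (1.33 to 2.75) and 4.64 CPM (3.71 to 5.74), giving a log2 ratio of 1.24 (0.65 to 1.89). It was fibroblast-held, with 75.0% and 73.3% of its UMIs there, at 6.94 and 14.9 CPM, giving a log2 ratio of 1.08 (0.40 to 1.84). Within clusters it was 1.27 (-1.31 to 2.82) in cluster 0 and -0.30 (-1.70 to 2.23) in cluster 3, and both intervals hold 0.

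Cxcl14 (ENSMUSG00000021508; chromosome 13, 56288643 to 56296551) stood at 42.0 CPM (38.9 to 45.3) and 22.9 CPM (20.8 to 25.2), giving a log2 ratio of -0.87 (-1.05 to -0.70). Fibroblast-like cells held 68.6% and 84.0% of it, at 137 CPM (125 to 150) and 84.4 CPM (75.9 to 93.6), giving a log2 ratio of -0.70 (-0.90 to -0.50). Within clusters it was -0.19 (-0.84 to 0.34) in cluster 0 and 0.57 (-0.26 to 1.71) in cluster 3, and both intervals hold 0. Cxcl13 (ENSMUSG00000023078; chromosome 5, 95956951 to 95961068), the B cell attractant, had 3 and 125 UMIs, 0.182 CPM (0.0376 to 0.533) and 6.75 CPM (5.62 to 8.04), giving a log2 ratio of 4.99 (3.63 to 7.51). Macrophage-like cells had 3 and 47 of these UMIs, 2.67 and 36.9 CPM, and fibroblast-like cells 0 and 39. Clusters 29 and 3 held 22 and 37 of them in the library labelled p53 knockout and none in the other, where cluster 29 had 2 cells.

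Ccl25 and Ccl27a were spread over many classes. Ccl25 (ENSMUSG00000023235; chromosome 8, 4325210 to 4360020), which attracts cells that bear Ccr9, stood at 42.5 CPM (39.4 to 45.8) and 39.5 CPM (36.7 to 42.5) over all cells, giving a log2 ratio of -0.10 (-0.26 to 0.05). In fibroblast-like cells, its main source class, it was 53.2 and 43.5 CPM, with -1.15 (-2.93 to -0.04) in cluster 0 and 0.91 (-0.31 to 2.97) in cluster 3. Its highest class level was 100 CPM (59.4 to 158), in T or NK-like cells of the library labelled p53 knockout. No class of at least 50 cells per library exceeded its level over all cells 2-fold in the library labelled wild-type. Ccl27a (ENSMUSG00000073888; chromosome 4, 41769467 to 41774247) had 158 and 88 UMIs, 9.61 CPM (8.17 to 11.2) and 4.75 CPM (3.81 to 5.86), giving a log2 ratio of -1.01 (-1.41 to -0.63). Cardiomyocyte-like cells held 81 and 7 of these, at 13 and 3.12 CPM, giving a log2 ratio of -1.97 (-3.42 to -0.95), which was -0.06 once cells were thinned to 500 UMIs.

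Leukocytes held 74.8% and 83.6% of the UMIs of Ccr2, 85.1% and 78.5% of those of Ccr1, 55.4% and 58.0% of those of Cxcr4, but 12% and 34.7% of those of Cx3cr1. The leukocyte classes differed in size. There were 0 and 77 neutrophil-like, 5 and 158 monocyte or dendritic-like, 48 and 225 B-like and 30 and 131 T or NK-like cells, whereas macrophage-like cells made up 7.28% and 9.03%. RNA of red blood cells was also higher in the library labelled p53 knockout. In each of the 5 classes examined, 5 of 5 blood genes were at least 2-fold higher, as were 4.23% to 8.21% of all genes. The blood genes had median log2 ratios of 1.10 in fibroblast-like to 2.51 in cardiomyocyte-like cells. The part of blood in the leukocyte counts was not tested.

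Ccr2 (ENSMUSG00000049103; chromosome 9, 124101950 to 124113557), the monocyte receptor for Ccl2, stood at 18.8 CPM (16.8 to 21.0) and 42.5 CPM (39.6 to 45.6), giving a log2 ratio of 1.18 (0.99 to 1.37). In macrophage-like cells it was 184 CPM (160 to 211) and 286 CPM (257 to 317), giving a log2 ratio of 0.63 (0.38 to 0.89), and in monocyte or dendritic-like cells of the library labelled p53 knockout 881 CPM (776 to 995). T or NK-like cells had 611 and 156 CPM from 19 and 28 UMIs, giving a log2 ratio of -1.98 (-2.86 to -1.05). Within the macrophage-like clusters shared by both libraries the intervals held 0. Cluster 25 had 827 CPM (704 to 966) and 975 CPM (848 to 1117), giving a log2 ratio of 0.24 (-0.07 to 0.54), and cluster 24 had 449 and 273 CPM, giving a log2 ratio of -0.77 (-1.59 to 0.29). The class value also depended on the filter, as it was 0.04 with at least 500 genes per cell, 0.10 with at most 20% mitochondrial UMIs and -0.11 at a finer clustering. After thinning, 3.96% and 7.49% of macrophage-like cells held a Ccr2 UMI, against 0.230% and 0.354% of cardiomyocyte-like cells (6.05% and 13.6% against 0.410% and 1.16% unthinned, at median depths of 912 and 1228 UMIs in macrophage-like cells and of 982.5 and 1760 UMIs in cardiomyocyte-like cells).

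Ccr1 (ENSMUSG00000025804; chromosome 9, 123962124 to 123968692), the receptor of Ccl6 and Ccl9, had 67 and 246 UMIs, 4.07 CPM (3.16 to 5.17) and 13.3 CPM (11.7 to 15.1), giving a log2 ratio of 1.70 (1.31 to 2.12). In macrophage-like cells it was 49.9 and 70.7 CPM, giving a log2 ratio of 0.50 (0.01 to 1.01). Within clusters it was 1.36 (0.13 to 2.90) in cluster 25, 1.25 (-0.08 to 2.45) in cluster 22 and -0.83 (-6.74 to 1.19) in cluster 23. Its highest levels were in neutrophil-like cells, at 422 CPM (300 to 576), and monocyte or dendritic-like cells, at 212 CPM (163 to 272), of the library labelled p53 knockout.

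Cxcr2 (ENSMUSG00000026180; chromosome 1, 74153989 to 74161246), the neutrophil receptor for Cxcl1, Cxcl2, Cxcl3 and Cxcl5, had 10 and 178 UMIs, 0.608 CPM (0.292 to 1.12) and 9.61 CPM (8.25 to 11.1), giving a log2 ratio of 3.92 (3.07 to 5.07). Neutrophil-like cells of the library labelled p53 knockout held 100 of the 178, at 1081 CPM (880 to 1315). A Cxcr2 UMI was found in 34.2% of them after thinning, against 0.236% of cardiomyocyte-like cells (46.8% and 0.466% unthinned, at median depths of 867 and 1760 UMIs). In macrophage-like cells there were 0 and 23 UMIs, 18.1 CPM in the second, 6.76-fold above a floor of 3 counts in the first. Neutrophil markers summed to 91.7 and 298 CPM in macrophage-like cells, with 6 and 8 of 9 detected, and their part in this value was not tested.

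Cxcr4 (ENSMUSG00000045382; chromosome 1, 128588199 to 128592293), the receptor of Cxcl12, had 112 and 641 UMIs, 6.81 CPM (5.61 to 8.2) and 34.6 CPM (32.0 to 37.4), giving a log2 ratio of 2.34 (2.05 to 2.65). It differed within classes as well as with their sizes. Macrophage-like cells had 43.6 CPM (32.3 to 57.7) and 130 CPM (111 to 152), giving a log2 ratio of 1.57 (1.11 to 2.07), and within cluster 25 the ratio was 1.57 (0.51 to 2.88) and within cluster 22 it was 1.38 (0.11 to 2.56). Vascular endothelial-like cells had 10.9 and 36.3 CPM, giving a log2 ratio of 1.72 (1.12 to 2.41), and pericyte-like cells 4 and 25 UMIs, 5.46 and 71.6 CPM. In the endothelial cluster 7, where Cxcl12 was level, Cxcr4 had 24.8 and 68.4 CPM, giving a log2 ratio of 1.41 (0.60 to 2.46). B-like cells had 232 and 254 CPM, giving a log2 ratio of 0.07 (-0.80 to 1.19), and its highest class level was in neutrophil-like cells, at 422 CPM (300 to 576).

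Cx3cr1 (ENSMUSG00000052336; chromosome 9, 119901616 to 120069879), the receptor of Cx3cl1 on patrolling monocytes and resident macrophages, stood at 15.1 CPM (13.3 to 17.1) and 21.7 CPM (19.6 to 23.9), giving a log2 ratio of 0.52 (0.28 to 0.75). Endocardial-like cells, its main source class, held 54 and 69 of its UMIs, at 30.1 CPM (22.6 to 39.2) and 17.4 CPM (13.5 to 22), giving a log2 ratio of -0.79 (-1.32 to -0.25). Neither class level was 2-fold its level over all cells of the same library, and cardiomyocyte-like cells were the largest holder under the wild-type label (26.1%). Within cluster 4 of the endocardial-like class the levels were 30.4 and 29.1 CPM. Macrophage-like cluster 25 had 88.5 and 107 CPM, giving a log2 ratio of 0.26 (-0.70 to 1.27). Cluster 24 had 112 and 67.6 CPM from 3 and 23 UMIs, giving -0.92 (-2.46 to 1.65). Monocyte or dendritic-like cells of the library labelled p53 knockout had 209 CPM (160 to 269), its highest class level.

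Lymphocyte receptors were few in UMIs. Cxcr5 (ENSMUSG00000047880; chromosome 9, 44511787 to 44561877), the receptor of Cxcl13, had 38 and 84 UMIs, 2.31 CPM (1.64 to 3.17) and 4.54 CPM (3.62 to 5.62), giving a log2 ratio of 0.96 (0.40 to 1.57). In B-like cells it was 211 CPM (101 to 388) and 182 CPM (136 to 239), giving a log2 ratio of -0.27 (-1.21 to 0.93). Ccr7, the receptor of Ccl21a and Ccl19, had 18 and 75 UMIs. In B-like cells it was 190 and 89.2 CPM, giving a log2 ratio of -1.14 (-2.24 to 0.20), and in T or NK-like cells 96.5 and 94.6 CPM. Xcr1, which marks a dendritic cell type, had 12 and 13 UMIs. Of these, 9 and 8 lay in the unnamed cluster 33 of 21 and 19 cells, led by Wdfy4, Clec9a and Flt3. That cluster also met the pericyte marker list, and whether it held mixed cells was not tested. For Cxcr5 and Ccr7 in B-like cells the intervals hold 0.

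**Figure D5:**
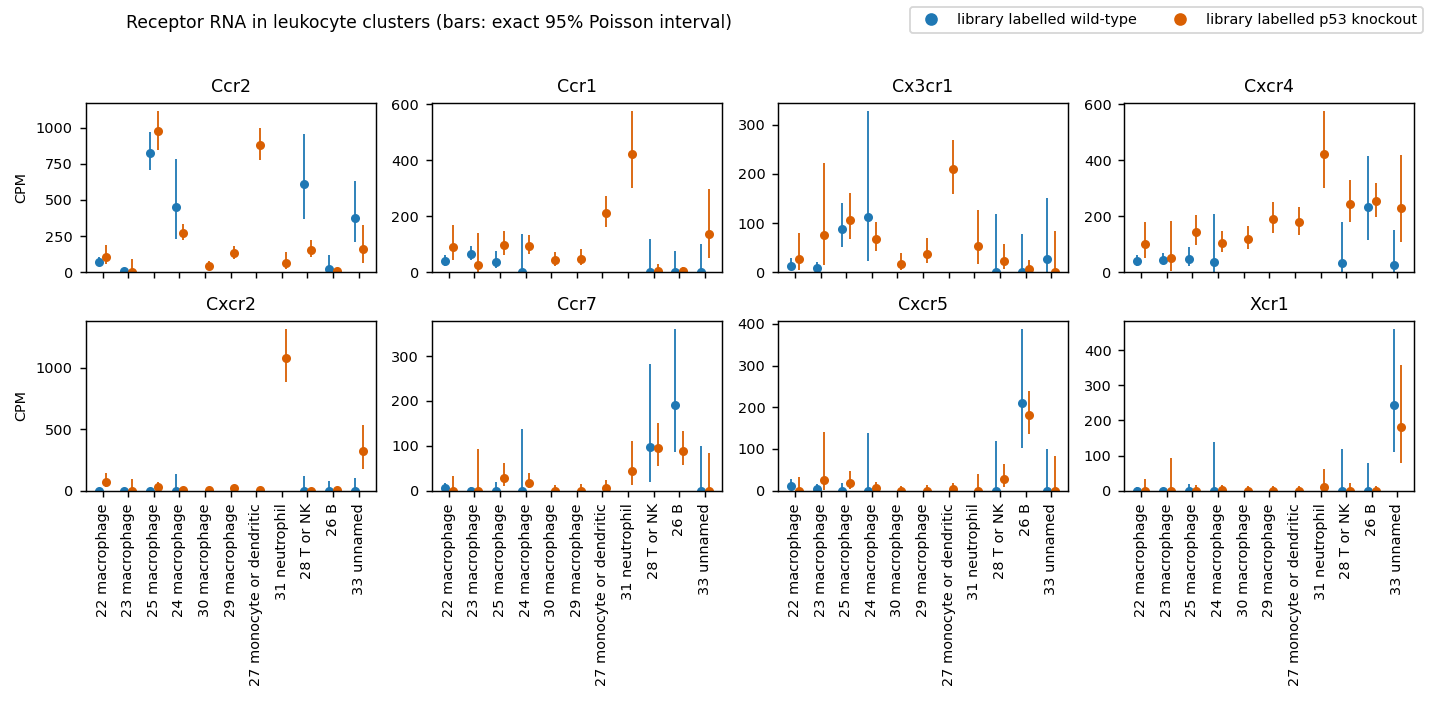
CPM of 8 receptors in each leukocyte cluster (number and class on the x axis) in the library labelled wild-type (blue) and the library labelled p53 knockout (orange), with exact 95% Poisson intervals; clusters with fewer than 19 cells in a library have no point for it. Ccr2 is similar between the libraries in cluster 25 and near 881 CPM in cluster 27, which is found in the library labelled p53 knockout, and Cxcr2 is high in cluster 31.

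The atypical receptors had more UMIs outside leukocytes. Ackr3 (ENSMUSG00000044337; chromosome 1, 90203980 to 90216751), which takes up Cxcl12, stood at 206 CPM (199 to 213) and 212 CPM (206 to 219) over all cells, giving a log2 ratio of 0.04 (-0.02 to 0.11). This level total held opposite parts. Fibroblast-like cells had 373 CPM (353 to 394) and 226 CPM (212 to 240), giving a log2 ratio of -0.73 (-0.85 to -0.61), and vascular endothelial-like cells had 155 CPM (140 to 172) and 305 CPM (287 to 325), giving a log2 ratio of 0.98 (0.80 to 1.15). Within clusters the ratio was -0.06 (-0.42 to 0.27) in cluster 0 and -1.28 (-1.58 to -0.96) in cluster 3, and in endothelial clusters 2, 7 and 10 it was 1.05, 1.14 and 0.54. The highest class level in the library labelled p53 knockout was 337 CPM (295 to 384), in lymphatic endothelial-like cells.

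Ackr1 (ENSMUSG00000037872; chromosome 1, 173331886 to 173333750), known from venules and red blood cells, had 30 and 208 UMIs, 1.82 CPM (1.23 to 2.60) and 11.2 CPM (9.76 to 12.9), giving a log2 ratio of 2.60 (2.07 to 3.23). Endocardial-like cells had 6 and 127 UMIs, 3.34 CPM (1.23 to 7.27) and 32.0 CPM (26.7 to 38.1), giving a log2 ratio of 3.15 (2.10 to 4.73). Cluster 8 held 121 of these 127, in 60 of its 1258 cells. In cluster 4 both libraries had 6 UMIs, 3.38 and 8.74 CPM, and the 6 of the library labelled p53 knockout came from 1 cell. With a finer clustering the class ratio was 5.14. Selp, an adhesion molecule of activated and venous endothelium, was at 12.2 and 625 CPM in the same class. The part of blood RNA, whose 5 genes had a median log2 ratio of 2.10 there, was not tested.

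Ackr2 (ENSMUSG00000044534; chromosome 9, 121898355 to 121911074), which takes up inflammatory CC chemokines such as Ccl2, had 92 and 511 UMIs, 5.59 CPM (4.51 to 6.86) and 27.6 CPM (25.3 to 30.1), giving a log2 ratio of 2.30 (1.98 to 2.64). Vascular endothelial-like cells had 6.69 and 46.5 CPM, giving a log2 ratio of 2.76 (2.05 to 3.64), and fibroblast-like cells, its main source class, 14.2 and 31.9 CPM, giving a log2 ratio of 1.16 (0.69 to 1.67). Within the fibroblast-like clusters the intervals held 0, at 1.11 (-0.51 to 2.25) in cluster 0 and 0.15 (-0.98 to 1.93) in cluster 3, whereas endocardial-like cluster 4 had 3.38 and 35.0 CPM, giving a log2 ratio of 3.29 (2.04 to 4.95). Its highest class level was in lymphatic endothelial-like cells, with 10 and 147 UMIs, 43.0 CPM (20.6 to 79.1) and 219 CPM (185 to 258), giving a log2 ratio of 2.28 (1.43 to 3.44). This class was a single cluster in both libraries, in which Ccl21a was lower. After thinning, 1.52% and 6.92% of its cells held an Ackr2 UMI, against 0 of 46 and 0 of 222 B-like cells (2.96% and 25.9% against 0 of 48 and 0.444% unthinned, at median depths of 988 and 1866 UMIs in lymphatic endothelial-like cells and of 984.5 and 1139 UMIs in B-like cells).

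Ackr4 (ENSMUSG00000079355; chromosome 9, 104084157 to 104126933), which takes up Ccl19 and Ccl21, had 238 and 515 UMIs, 14.5 CPM (12.7 to 16.4) and 27.8 CPM (25.5 to 30.3), giving a log2 ratio of 0.94 (0.72 to 1.17). Fibroblast-like cells held 50% and 61.0% of it, at 34.4 CPM (28.5 to 41.2) and 74.2 CPM (66.3 to 82.9), giving a log2 ratio of 1.10 (0.80 to 1.43). It was higher within both fibroblast-like clusters, at 1.15 (0.29 to 1.85) in cluster 0 and 2 (0.66 to 4.51) in cluster 3. These came from 116 and 17 UMIs in cluster 0 and 3 and 297 in cluster 3. With cells thinned to 500 UMIs the class ratio was 0.74. Across the same class Ackr3 was lower, so the atypical receptors of fibroblast-like cells did not share 1 direction.

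Sources of ligands were set against classes of receptors for 41 listed ligand and receptor pairs. Both partners had at least 20 UMIs in 15 pairs under the wild-type label and in 23 of the library labelled p53 knockout. The largest holder was the same class for both partners in 7 and 6 of these and a different class in 8 and 17. Of the 28 members with at least 20 UMIs in each library, 17 had the same largest holder in both. No share over all genes was computed for this or for the pairs, so these counts are a description. Ccl2 and Ccr2 went from fibroblast-like and macrophage-like holders to endocardial-like and macrophage-like ones. For Cxcl1 and Cxcr2 the receptor had 10 UMIs in the library labelled wild-type, too few to place, and lay in neutrophil-like cells of the other library, with Cxcl1 in endocardial-like cells. Cxcl12 and Cxcr4 were held by vascular endothelial-like and macrophage-like cells in both. Ccl6 and Ccl9 with Ccr1 and Ccl12 with Ccr2 were macrophage pairs in both. Ccl19 and Ackr4 were fibroblast pairs in both.

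Genes that act with chemokines, immediate early genes and blood RNA were taken as 7 lists and examined in 5 classes. The lists were not examined within clusters, although the same class was often held by different clusters in the libraries. Of 23 genes of chemokine receptor signalling measured in macrophage-like cells, 9 were at least 2-fold higher in the library labelled p53 knockout (8.21% of all genes there) and 0 were lower, with a median of 0.75 against -0.04 over all genes. The higher ones included Rgs1, which damps receptor signals (8.91 and 87.2 CPM), Pik3r5, a subunit of the lipid kinase that receptors activate (29.4 and 223 CPM), and Arrb2, the arrestin that ends signalling (177 and 478 CPM). The guanine exchange partners Dock2 and Elmo1 had log2 ratios of 0.29 and 0.49. Of this list, 3 of 19 were higher in fibroblast-like (6.88% of all genes) and 2 of 19 in vascular endothelial-like cells (6.27%). Endocardial-like cells had 1 of 18 higher (6.38%), and cardiomyocyte-like cells 3 of 19 (4.23%).

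Of 18 genes of leukocyte adhesion measured in macrophage-like cells, 9 were higher (8.21% of all genes) and 3 were lower (11.8%), with a median of 0.93. Itgax, an integrin of dendritic cells and recruited macrophages, was 8.02 and 102 CPM, and Itgam was 91.7 and 233 CPM. Itgax is also a monocyte or dendritic marker, and those markers summed to 142 and 266 CPM in macrophage-like cells. The part of such cells in these values was not tested. In endocardial-like cells 7 of 16 adhesion genes were higher (6.38% of all genes) and 0 lower, led by Selp and Icam1 (105 and 289 CPM). The remaining classes had 6 of 18 higher in fibroblast-like (6.88%), 1 of 14 in vascular endothelial-like (6.27%) and 3 of 16 in cardiomyocyte-like cells (4.23%).

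Inducers of chemokines, the NF-kB and cytokine list, had 8 of 23 higher (6.38% of all genes) and 1 lower (11.2%) in endocardial-like cells. Icam1, Vcam1, Sele and Selp are in this list and in the adhesion list, so the counts of these lists are not independent. Fibroblast-like cells had 8 of 24 higher (6.88%) and 1 lower (11.2%). Il6 had 0 and 171 UMIs in endocardial-like cells and 5 and 367 in fibroblast-like cells, where it stood at 1.45 and 86.8 CPM. Tnfaip3, which NF-kB induces, was 5.57 and 36.3 CPM in endocardial-like cells, and Il1r1, the receptor of interleukin-1, was 140 and 447 CPM. In macrophage-like cells 6 of 23 (8.21% of all genes) and in vascular endothelial-like cells 6 of 22 (6.27%) were higher. Cardiomyocyte-like cells had 2 higher and 2 lower of 20 measured (4.23% and 16.2% of all genes).

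Genes of chemokine processing and surface binding had 2 to 5 members higher and 1 to 3 lower of 19 or 20 measured in each class, where 4.23% to 8.21% of all genes were higher and 11.2% to 16.2% lower. In endocardial-like cells Dpp4, the protease that clips Cxcl12 and other chemokines, was 331 and 75.8 CPM, giving a log2 ratio of -2.13, and Sdc4, a heparan sulfate carrier, was 20 and 58.2 CPM. Other chemoattractants had 5 of 16 higher (6.38% of all genes) and 3 lower (11.2%) in endocardial-like cells, among the higher Csf1, the growth factor of macrophages (56.8 and 191 CPM, giving a log2 ratio of 1.74). In macrophage-like cells 2 of 16 were higher (8.21%) and 2 lower (11.8%), shares near those of all genes, and Pf4, a platelet chemokine that macrophages also make, was 245 and 113 CPM, giving a log2 ratio of -1.11.

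Immediate early genes, which tissue dissociation can induce, were examined in the same way. Of 18 measured in endocardial-like cells, 3 were higher (6.38% of all genes) and 3 lower (11.2%), with a median log2 ratio of -0.03 against -0.11 over all genes. Fibroblast-like cells had 5 of 19 higher (6.88%) and 1 lower (11.2%), with a median of 0.45 against -0.10. Macrophage-like cells had 3 of 15 higher (8.21%) and 1 lower (11.8%), with a median of 0.53 against -0.04. Vascular endothelial-like cells had 4 of 17 higher (6.27%) and 2 lower (12.0%), with a median of 0.45 against -0.08, and cardiomyocyte-like cells 5 of 18 higher (4.23%) and 3 lower (16.2%), with a median of 0.32 against -0.27. The part of these genes' induction in the chemokine values was not tested in any class. Markers of other cell types were also set beside the endocardial-like results. Macrophage markers summed to 235 and 174 CPM there, with all 10 detected in both, and fibroblast markers to 3092 and 3654 CPM, against 17450 and 20290 CPM in fibroblast-like cells.

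The 15 members with 20 to 99 UMIs were Ccl1, Ccl4, Ccl8, Ccl17, Ccl24, Ccl28, Ccr4, Ccr6, Ccr7, Ccr9, Cxcl9, Cxcl17, Cxcr3, Cxcr6 and Xcr1. Those not yet given ranged from 1 UMI of Ccr4 in the library labelled wild-type to 67 of Ccl8 in the other. Ccl8 had 11 and 67 UMIs, and in macrophage-like cells 2.67 and 22.8 CPM, giving a log2 ratio of 2.89 (1.40 to 5.45). Cluster 30 held 19 of the 29 macrophage-like UMIs. Ccl4 in the same class had 7 and 18 UMIs, and its interval held 0. Cxcr6, the receptor of Cxcl16, had 9 of its 17 and 12 of its 18 UMIs in T or NK-like cells, 290 and 66.8 CPM, giving a log2 ratio of -2.13 (-3.49 to -0.69). Ccr6, known from B cells, had 9 and 44 UMIs, of which 2 and 28 lay in B-like cells. The 8 members with 1 to 19 UMIs were Ccl3, Ccl20, Ccl22, Ccl26, Ccr3, Ccr8, Ccr10 and Xcl1. Ccl26, an eotaxin, had 18 and 1 UMIs and was the furthest apart of these on the lower side, while Ccl3 had 2 and 12 and Ccl20 had 1 and 12.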

How the data were processed

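Gene counts per barcode were analysed as deposited, whole UMI counts of 2 single-cell libraries, 1 per group. The authors' processing used Cell Ranger, Seurat and the mm10 build, per the submitters' processing notes. The tool versions and the settings are not stated there. A droplet kit is named in the labels' protocols, whereas the barcodes consist of 3 blocks of 9 bases. Whether cells or nuclei were loaded was not settled.

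Barcodes with at least 200 genes and at most 50% mitochondrial UMIs were used. Scrublet's automatic threshold marked 1274 and 1 barcodes, so the 8% of barcodes with the highest doublet scores were removed in each library, 1283 and 808. Cells of both libraries were clustered together without batch correction in scanpy 1.11.5 with leidenalg 0.10.2, using 2000 variable genes, 30 components, 15 neighbours and resolution 1. Classes were named from marker lists. Cluster 17 (2 and 318 cells, led by Gm10800) met no list and stayed unnamed. Cluster 33 met the pericyte list, with 8 markers past the threshold. It stayed unnamed because its leading genes were those of another class. A number of choices were made after the data were seen: leukocyte clusters were divided a second time because neutrophils had merged with macrophages, Cdh19 was dropped from the Schwann list because it left cluster 0 unnamed, and the naming thresholds, the promoters shown and the genes in figures were set.

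UMIs were summed per library and class and scaled to 1000000 nuclear-encoded UMIs. Log2 ratios have the p53 knockout label in the numerator and 0.5 UMIs added to each count. Intervals are exact (Poisson for levels, Clopper-Pearson for shares, conditional binomial for ratios; scipy 1.17.1). Against 0 UMIs a floor of 3 counts per library was used. Shares of cells were also taken after thinning each cell to 500 UMIs. The rule was to name and describe every member that reached 100 UMIs in total. One of these is not reported here by name, and the counts over all members include it. The calculation was tested on simulated counts. Alternatives were other filters, resolution, thinning and equal class shares. The members and all lists were chosen with earlier results of these data known. Sequences are from RefSeq.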

Additional observations from a re-analysis of the deposited data

Results flagged for a closer look

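For 3 members, at least 1 class was 2-fold or more higher and another 2-fold or more lower in the library labelled p53 knockout, each with an interval that leaves out 0. None of these differences between classes was tested, as each group had 1 library. Ccl7, the monocyte attractant, had log2 ratios of 2.79 in endocardial-like, 1.90 in macrophage-like and 4.54 in mesothelial-like cells and of -1.26 in fibroblast-like cells. Cxcl1, the neutrophil attractant, had 3.27 in endocardial-like and -1.04 in fibroblast-like cells. Ccl21a (ENSMUSG00000094686), the lymphatic ligand, had 3.35 in mesothelial-like and -1.01 in fibroblast-like cells. Both classes lay below its 97 and 140 CPM over all cells and its 4705 and 3248 CPM in lymphatic endothelial-like cells. Mesothelial-like cells had 0 and 23.2 CPM of Ccl21a, and fibroblast-like clusters 0 and 3 had 16.2 to 34 CPM. The part of free RNA in these 2 ratios was not tested. In mesothelial-like cells the library labelled wild-type held 0 UMIs of Ccl7 and of Ccl21a, against 53 and 23, so those ratios depend on the 0.5 UMIs added and are no bounds.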

How the results depend on the processing

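With cells thinned to 500 UMIs, 5 members were at least 2-fold higher and 1 at least 2-fold lower in their main source class, against 14 and 6; thinning leaves fewer UMIs to reach the minimum, and the cause was not tested further. The other counts stayed within 1.5 times under every alternative run. Of 278 alternative values for 28 named ratios, 266 moved by less than the counting interval and 12 by more. Of these values 4 had the other sign, none of them past 2-fold. The median ratio in the main source class lay between -0.08 and 0.15, so its sign depends on the setting. Of 16 named ratios past 2-fold, 10 were so in every alternative. The ratio of Ccr2 in macrophage-like cells was 0.04 to 0.10 under stricter cell filters and -0.11 at resolution 2, and that of Cxcl2 there was 2.01 without the second division of leukocytes. With thinning, Ccl27a in cardiomyocyte-like cells went from -1.97 to -0.06. Thinning also lowered Ackr4 in fibroblast-like cells to 0.74 and Cxcr4 in macrophage-like cells to 1.01, both below their counting intervals. No paired analysis was possible because each group has 1 library. Leaving out a replicate was not possible for the same reason.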
